A study of Mus musculus with 13 samples.

Results

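The amino acid transporter genes of the mouse kidney were followed in open chromatin. The set holds the protein-coding genes of GENCODE M21 (mm10) whose symbols begin with Slc1a, Slc3a, Slc6a, Slc7a, Slc36a, Slc38a or Slc43a and a number, 64 of 22028 protein-coding genes. The name rule also takes in Slc7a6os, which lies next to Slc7a6 and is named for its antisense position, not for transport. Nuclei from whole kidneys were profiled by single nuclei ATAC-seq (snATAC-seq), in which Tn5 transposase tags open DNA, with 2 samples from postnatal day 0 (P0), 1 from day 21 (P21, 3 weeks) and 2 from day 56 (P56, 8 weeks). Following the study, P21 and P56 were pooled as adult. This group thus has 3 samples. The protocol gives the P0 mice as 1 day old, the labels name no treatment, and the strain and genotype of the mice used for snATAC-seq are not given in the sources used here. The methods name wild type C57BL/6 mice for the scRNA-seq of the same study. Each sample held every one of the 13 main clusters. They are nephron progenitors (NP), podocytes (Podo), the proximal convoluted (PCT) and straight (PST) tubule and the loop of Henle (LOH). The others are the distal convoluted (DCT) and connecting (CNT) tubule, principal (PC) and intercalated (IC) cells, endothelium (Endo), immune cells and a pair of stromal clusters. Names follow the deposit except for PCT and PST, which were deposited as PT and PT2 and were given their segment names here. At both stages the convoluted markers Slc34a1, Slc5a2 and Slc5a12 were highest in PT. The straight markers Kap and Slc22a30 were highest in PT2, while Cyp7b1 was highest in neither.

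Filtered amino acids are taken back almost completely along the proximal tubule. Transporters on the apical, brush border side bring neutral, imino, anionic, cystine and dibasic amino acids into the cell, and exchangers and uniporters on the basolateral side pass them on to the blood. Several transporters are heterodimers of a heavy chain of family Slc3 and a light chain of family Slc7, and loss of single genes gives inherited disorders, such as cystinuria for SLC3A1 and SLC7A9, Hartnup disorder for SLC6A19 and lysinuric protein intolerance for SLC7A7. Other members of these families serve nerve terminals, placenta, immune cells or lysosomes.

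All 64 members held at least 1 peak within the gene body or 2 kb upstream, and 688 distinct peaks in all. The median member had 7.5 peaks in a window of 36 kb, against 3 peaks in 19.32 kb over all protein-coding genes. Of the member peaks, 483 (70.2%) lay in introns, 74 at an annotated start, 57 in coding exons, 31 in UTR exons, 29 upstream and 14 in other exons. A peak counts as open in a nucleus when it holds a fragment, each such pair is 1 open call, and gene activity is the sum of open calls over the peaks of a gene, scaled to the total of that cluster and sample and given per 1000000 open calls (CPM). It measures accessibility and not RNA, and long windows with many peaks give higher values. The samples held 3361 to 7129 nuclei and 16980853 to 43794155 open calls, and 477 of 27834 barcodes occurred in more than 1 sample. Of 34 cell type markers, 30 were highest at P0 and 29 in the adult samples in the cluster they name. At P0 the connecting tubule markers Trpv5 and Calb1 were highest in DCT. In the adult samples the progenitor markers Cited1 and Six2 were highest in podocytes and Stroma 2, and the immune marker Csf1r in PST. Cubn and Cyp7b1 were the proximal markers highest elsewhere, which left 7 of 9 proximal markers in place at both stages. Nuclei are not replicates, so sums per sample were tested, and since the labels do not say that samples are separate animals, p-values measure the spread between these samples, which may be technical.

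The sequences below stand for intronic and upstream peaks in which the convoluted and straight segments differed, 3 in each direction. They were picked by the ratio of the adult levels, after the values were seen, among peaks of the named genes that count for 1 gene only and reach 10 CPM in the leading segment, with 1 peak a gene. Each is the central 300 bases of the peak on the strand of its gene, in GRCm38.p6. Capitals mark the letters GTTAAT, the core letters of a site for the hepatocyte factor HNF1, or their reverse complement ATTAAC, and GCCNNNGGC, the palindrome bound by TFAP2 factors. The 3 peaks led by PCT lie in introns and averaged 20.3, 17 and 11.3 CPM in adult PCT against 1.58, 1.92 and 1.54 in adult PST, in the order shown.
Slc7a8 at chr14:54749506-54749805, minus strand: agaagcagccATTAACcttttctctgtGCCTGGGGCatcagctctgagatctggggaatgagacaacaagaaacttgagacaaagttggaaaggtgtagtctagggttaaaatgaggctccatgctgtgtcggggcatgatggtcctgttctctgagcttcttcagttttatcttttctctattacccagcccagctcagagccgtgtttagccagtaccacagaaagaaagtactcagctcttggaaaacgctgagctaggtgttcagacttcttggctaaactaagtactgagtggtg
Slc43a2 at chr11:75549806-75550105, plus strand: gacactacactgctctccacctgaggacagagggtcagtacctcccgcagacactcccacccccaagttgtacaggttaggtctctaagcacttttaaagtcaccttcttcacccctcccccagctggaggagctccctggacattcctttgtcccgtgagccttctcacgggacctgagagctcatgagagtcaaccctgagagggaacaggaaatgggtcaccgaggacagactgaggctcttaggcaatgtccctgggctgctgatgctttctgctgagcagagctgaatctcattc
Slc38a4 at chr15:97011671-97011970, minus strand: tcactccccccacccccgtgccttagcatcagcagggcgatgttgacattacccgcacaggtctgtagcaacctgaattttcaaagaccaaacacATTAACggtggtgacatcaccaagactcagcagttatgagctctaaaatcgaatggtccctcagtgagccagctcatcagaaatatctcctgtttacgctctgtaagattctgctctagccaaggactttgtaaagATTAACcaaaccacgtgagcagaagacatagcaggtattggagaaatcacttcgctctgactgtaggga

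The 3 peaks led by PST lie in an intron of Slc7a12, 380 bases upstream of Slc38a3 and in an intron of Slc3a1. In this order they averaged 17.8, 16.9 and 48.6 CPM in adult PST against 0.368, 4.23 and 16.3 in adult PCT. They hold no capitals, which says only that the searched letters are not in these windows.
Slc7a12 at chr3:14489254-14489553, plus strand: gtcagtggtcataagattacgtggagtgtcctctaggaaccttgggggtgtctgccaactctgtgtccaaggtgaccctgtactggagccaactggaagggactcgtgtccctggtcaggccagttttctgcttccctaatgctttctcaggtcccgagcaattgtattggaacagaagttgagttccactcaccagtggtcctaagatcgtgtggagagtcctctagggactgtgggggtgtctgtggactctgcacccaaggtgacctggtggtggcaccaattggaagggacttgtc
Slc38a3 at chr9:107669760-107670059, minus strand: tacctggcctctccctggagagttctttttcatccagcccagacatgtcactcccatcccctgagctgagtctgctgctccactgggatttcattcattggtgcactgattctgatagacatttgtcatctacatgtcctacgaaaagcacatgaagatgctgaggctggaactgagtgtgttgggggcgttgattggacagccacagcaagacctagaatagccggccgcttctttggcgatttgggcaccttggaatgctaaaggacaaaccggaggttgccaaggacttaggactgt
Slc3a1 at chr17:85044681-85044980, plus strand: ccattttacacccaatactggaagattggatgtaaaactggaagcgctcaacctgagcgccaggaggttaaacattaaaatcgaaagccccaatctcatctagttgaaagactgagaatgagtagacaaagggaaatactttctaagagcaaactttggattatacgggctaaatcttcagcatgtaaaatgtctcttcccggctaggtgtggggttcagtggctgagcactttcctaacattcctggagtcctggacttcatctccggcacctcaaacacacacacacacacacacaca

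The letters were counted on both strands in the central 300 bases of every peak. GTTAAT stood in 25 of 176 member peaks (14.2%) whose highest adult level was in PCT or PST and in 39 of 512 other member peaks (7.62%), against 17.7% and 10.7% of all peaks split in the same way and 11.8% of all 300693 peaks searched. The longer letters CAAAGTCCA of a site for the nuclear receptor HNF4 stood in 1 of the 176 peaks (0.568%) and 2 of the 512 (0.391%), against 2.67% of all peaks led by PCT or PST and 0.8025% of all peaks. GCCNNNGGC stood in 17 of the 176 (9.66%) and 54 of the 512 (10.55%), against 8.97% of all peaks. A match is a description of the sequence, and binding was not measured.

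In adult kidneys 22 of the 64 members (34.4%) had their highest mean activity in PCT or PST, 14 in PST and 8 in PCT. Of 18018 genes, kept by a minimum of summed open calls that was not set for the members, 16% did. At P0 the number of members was 17 (26.6%), against 14.9% of these genes. The clusters were formed on the same nuclei, so these orders are descriptions without a test. The proximal leaders in the adult samples held all 4 apical neutral transporter genes and all 3 cystine and dibasic genes. Slc3a1, the heavy chain of the cystine transporter, averaged 297 CPM in PST and 231 in PCT. Slc6a19, the main apical transporter of neutral amino acids, averaged 235 in PCT and 179 in PST. For 10 of the 22, every adult value of the leading segment lay above every adult value of the other 12 clusters. These were Slc6a18, Slc3a1, Slc38a3, Slc7a12 and Slc6a5 in PST and Slc6a19, Slc7a9, Slc7a7, Slc7a8 and Slc36a1 in PCT. No count over all genes was made for this condition, so it does not set the members apart.

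**Figure D1:**
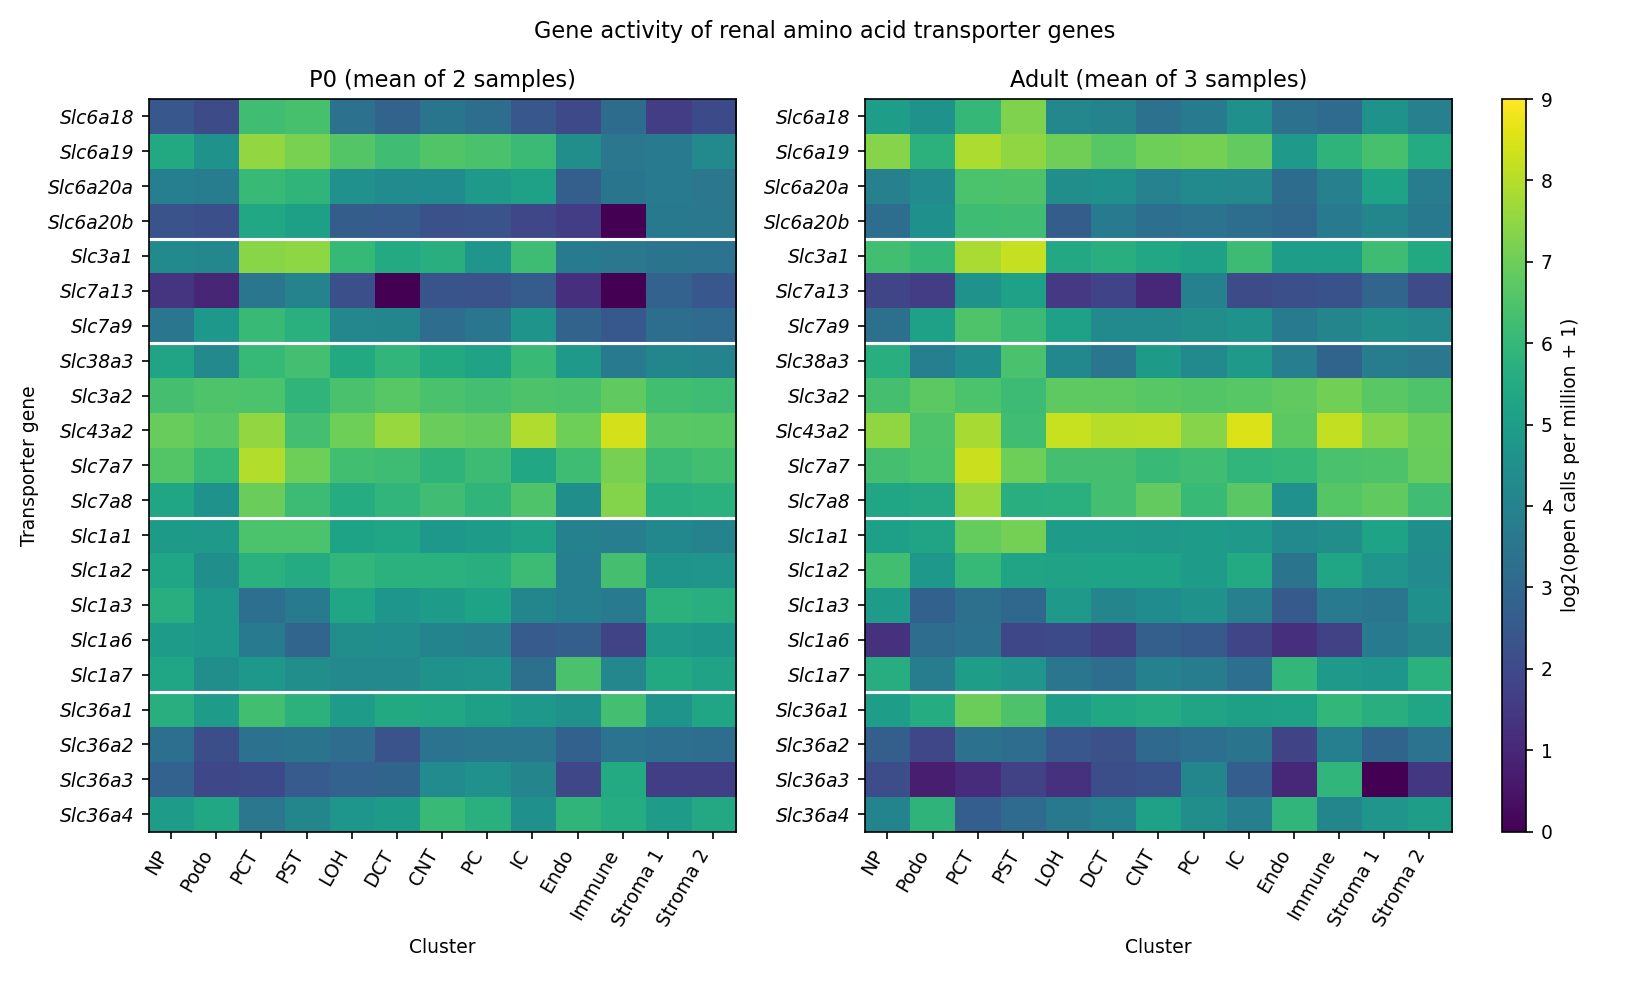
Mean gene activity on a log2 scale, as CPM with 1 added, for the genes of 5 roles, by cluster, at P0 (left, 2 samples) and in adult kidneys (right, 3 samples), with white lines between roles. The apical and cystine genes are brightest in the PCT and PST columns, and in adult kidneys Slc43a2 is dimmest in PST and Slc36a2, Slc36a3 and Slc1a6 are brightest outside the proximal columns.

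Members with other leaders showed where else these families are open. In adult kidneys the cluster named nephron progenitors led 10 members (15.6%), against 6.21% of the 18018 genes, and immune nuclei led 7 (10.9%), against 23%. At P0 principal cells led 8 members (12.5%), against 4.28% of genes. A share above that of all genes was thus not particular to the proximal segments. Slc43a2, a uniporter of large neutral amino acids, averaged 366 in adult intercalated cells and 306 in the loop of Henle, and its lowest value of the 13 clusters, 74.8, was in PST. Slc7a1, a carrier of arginine and lysine, led in principal cells (171) and was lowest in PCT (18.7). Slc38a4 led in podocytes, with 93.4, 73.7 and 78.4 in the 3 adult samples, and the second cluster, PCT, averaged 35.8. The cystine and glutamate exchanger gene Slc7a11 led in Stroma 2 (190.5), and Slc43a3, which carries purine bases and not amino acids, in the endothelium (70.9). Slc3a2, the heavy chain shared by many light chains, ranged from 70.2 in PST to 135 in immune nuclei. The leading cluster was the same at both stages for 21 of 64 members, which was not counted over all genes.

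Between P0 and adult kidneys, the apical neutral and the cystine and dibasic genes gained activity in the proximal segments, with 6 of these 7 higher in PCT and 5 in PST, while Slc6a11, a GABA carrier gene, and Slc38a1, a glutamine carrier gene, lost it in both. In PCT, 61 of 64 members passed the filter on low counts. Of these, 14 were higher in the adult samples and 13 lower by the quasi-likelihood test of edgeR (adjusted p under 0.05 over all genes), where 12.5% of all tested genes were higher and 14.7% lower. The median log2 fold change, adult over P0, was 0.12 over the 61 members and 0.02 over all genes. In PST, 58 passed the filter, 11 were higher and 4 lower, and the shares of all genes were 5.43% and 7.71%. Scaling by total open calls alone moved the median of all genes in PCT by -0.12 and the split of members to 10 higher and 15 lower, and in PST the split became 10 and 6. In PCT, 6 member calls were left without P0 sample 1 (among them Slc7a8, Slc36a1, Slc38a3, Slc38a1 and Slc6a11) and 8 without P0 sample 2, when Slc6a20b and Slc7a14 joined these. In PST no member passed without either P0 sample, with 17 and 16 members at an unadjusted p under 0.05, and DESeq2 on all 5 samples called 10 higher and 3 lower. With 1 P0 sample left, the calls over all tested genes fell too in PCT and PST, so this loss was not particular to the members. Markers of other cell types moved with stage in these clusters as well. The 2 DCT markers summed to 97.7 and 95.4 at P0 against 151, 175 and 200.4 in the adult samples in PCT and to 84.8 and 111 at P0 against 221, 202 and 190.2 in PST, nearly all of it in Slc12a3, while Pvalb was at 6.06 or less in every sample. The 3 immune markers in PST summed to 84.8 and 74.5 at P0 against 154, 139 and 125 in the adult samples, most of it in Csf1r, with Ptprc at 13.3 or less and C1qb at 0 in 4 of the 5 samples. The 2 principal cell markers in PCT summed to 7.67 and 10.8 at P0 against 23.2, 19 and 28.9. Those of loop of Henle summed to 26.2 and 25.1 at P0 against 27, 36.3 and 29.7 in PCT. In PST they summed to 32.7 and 32.2 at P0 against 41, 35.3 and 49.2. Other lists fell. In PCT the podocyte markers summed to 69.7 to 78.9 at P0 against 21.8 to 33.4 in the adult samples, those of stroma to 52.5 to 55 against 26.4 to 30.9, of endothelium to 45.5 to 50.2 against 25.4 to 30.2, of intercalated cells to 42.8 to 46 against 19 to 26.6 and of nephron progenitors to 15.8 to 20.8 against 7.46 to 12.3. In PST the sums of stroma (82.5 to 89.6 against 42.7 to 50.4), endothelium (60.4 to 67.8 against 40.4 to 51.6) and nephron progenitor markers (26.6 to 42.3 against 16.2 to 19) were lower in every adult sample. The part of other cell types in the member values of PCT and PST, rises and falls, was not tested.

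The 4 apical genes of neutral and imino acids are Slc6a18, Slc6a19, Slc6a20a, a proline carrier, and its paralog Slc6a20b. In PCT 3 of the 4 rose and in PST 3 of the 4. In CPM, Slc6a19 in PCT had 178 and 195 at P0 against 238 at P21 and 215 and 253 at P56. Every adult value lay above both P0 values, and the log2 fold change was 0.46 ± 0.11 (adjusted p = 0.0135). In PST it had 138 and 151 in the P0 samples against 214, 159.7 and 165 in the adult ones, which did not overlap either, at a log2 difference of 0.37 ± 0.15 (adjusted p = 0.125). The activity of Slc6a20b went from 40.1 and 41.6 at P0 to 65.9, 70.5 and 82.6 in the adult samples in PCT, a log2 fold change of 0.97 ± 0.15 (adjusted p = 0.00206), and from 27.9 and 40.2 at P0 to 76.5, 69.4 and 75.6 in the adult samples in PST, a change of 1.18 ± 0.20 (adjusted p = 0.00352). Its paralog Slc6a20a rose by log2 0.51 ± 0.12 in PCT and 0.67 ± 0.17 in PST. The 2 paralogs lie next to each other on chromosome 9, and how reads of near-identical copies were placed is not given in the sources used here.

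Slc6a18 (chr13:73661752-73678023, minus strand), a carrier of neutral amino acids in the later proximal tubule, differed between the segments. In PST it had 86 and 80.5 at P0 against 179 at P21 and 121 and 159.6 at P56, with no overlap and a log2 fold change of 0.95 ± 0.18 (adjusted p = 0.00588). In PCT it had 75.2 and 75.3 at P0 against 60.6 at P21 and 57.6 and 67.8 at P56. The adult values lay below the P0 values, but the log2 difference of -0.15 ± 0.12 (adjusted p = 0.38) did not pass the test. The neighbour gene Slc6a19 lies beside it in the same orientation, and 1 peak counts for both genes.

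**Figure D2:**
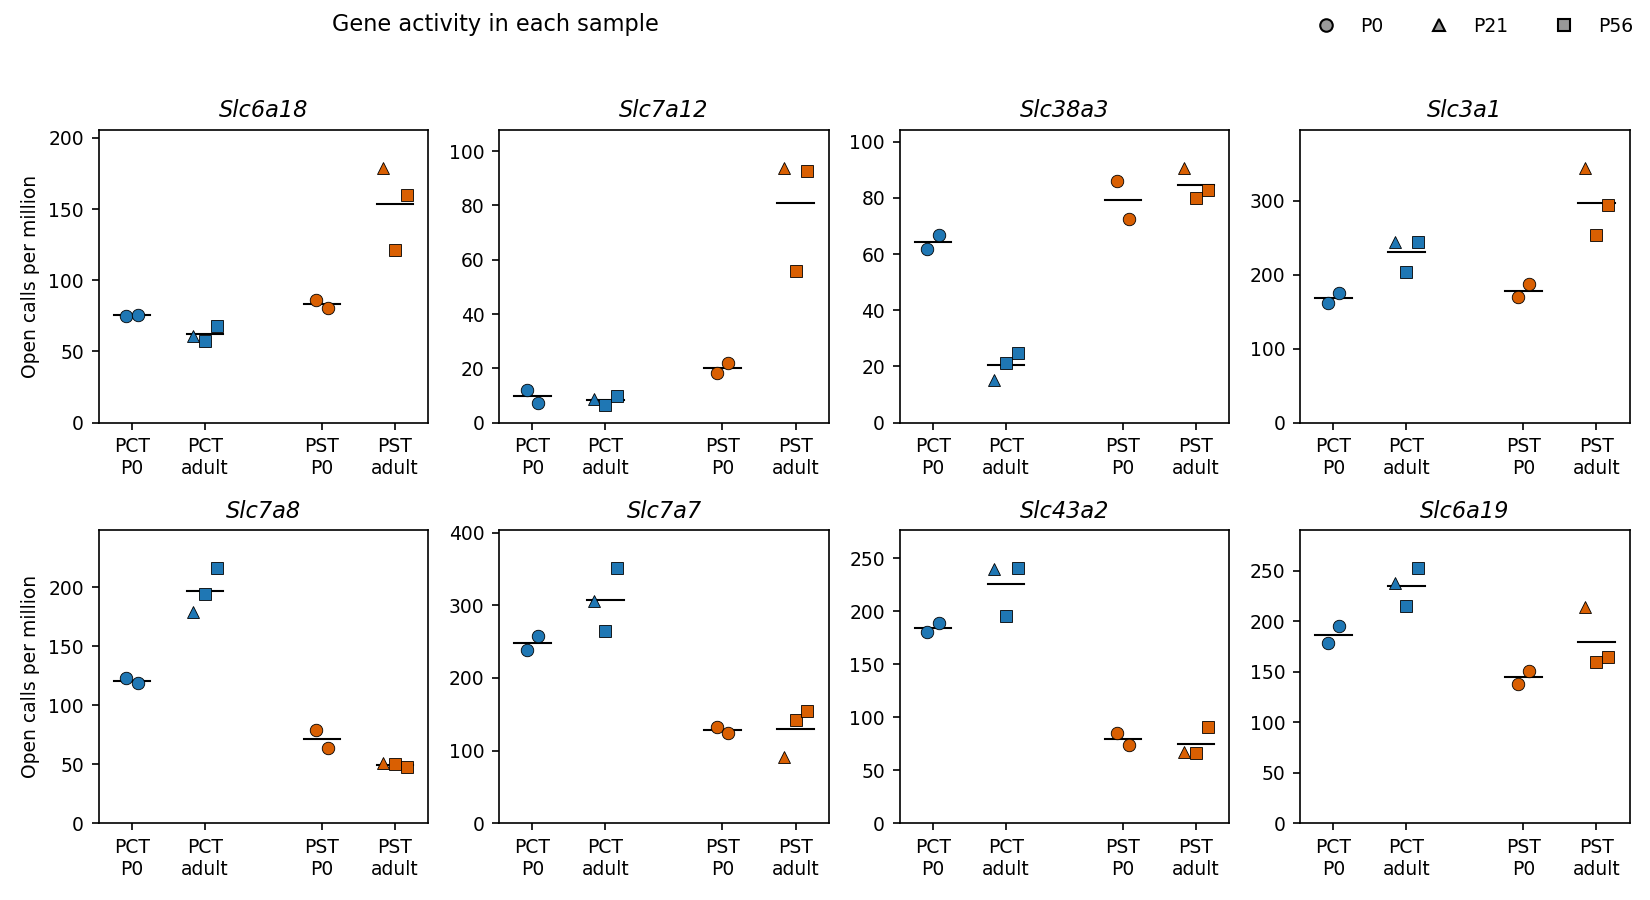
Gene activity of 8 named genes in CPM, by segment and stage, with 1 point a sample (circles P0, triangle P21, squares P56) and a black line at the mean of each group. The adult PST points of Slc6a18, Slc7a12 and Slc3a1 lie above all P0 points, those of Slc38a3 stay near the P0 level while its PCT points fall to 15.3 to 24.6, and the Slc7a8 points are higher in adult PCT and lower in adult PST.

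The cystine and dibasic genes are Slc3a1, its light chain Slc7a9 and Slc7a13, a second light chain that pairs with Slc3a1 in the straight segment. All 3 rose in PCT and 2 of them in PST. Slc3a1 in PCT had 162 and 175 at P0 against 244 at P21 and 204 and 245 at P56, and in PST 169.6 and 187 in the P0 samples against 344, 254 and 294 in the adult ones. The groups did not overlap in either segment, and the log2 fold changes were 0.57 ± 0.11 (adjusted p = 0.00535) and 0.80 ± 0.14 (adjusted p = 0.00423). Slc7a9 in PCT went from 66.1 and 69.4 at P0 to 90.2, 82.8 and 97.1 in the adult samples, a change of 0.54 ± 0.12 (adjusted p = 0.00901), and in PST from 56.9 and 45.3 at P0 to 82.7, 63.6 and 60.6 in the adult samples, where the difference of 0.49 ± 0.20 (adjusted p = 0.124) did not pass. Slc7a13 had 11.6 and 9.27 at P0 against 18.3 at P21 and 26.5 and 24.9 at P56 in PCT and 19.4 and 11.1 in the P0 samples against 37.9, 41.1 and 24.9 in the adult ones in PST. Its log2 fold changes were 1.27 ± 0.26 (adjusted p = 0.00622) and 1.25 ± 0.34 (adjusted p = 0.0306), and the call in PST was also lost without the P21 sample or without P56 sample 1.

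The basolateral genes are the exchangers Slc7a7, for dibasic amino acids, and Slc7a8, for neutral ones, their heavy chain Slc3a2, the uniporter Slc43a2 and the glutamine carrier Slc38a3. In PCT 3 rose, Slc38a3 fell and Slc3a2 did not pass the test, while none of the 5 passed in PST. Among the 5, only the stage effects of Slc7a8 and Slc38a3 were called different between the segments by the interaction test given below. Slc7a8 (chr14:54722209-54781946, minus strand) in PCT had 123 and 119 at P0 against 179 at P21 and 195 and 216 at P56, with every adult value above both P0 values and a log2 fold change of 0.83 ± 0.12 (adjusted p = 0.00177). In PST it had 78.7 and 63.4 at P0 against 51 at P21 and 50.0 and 47.8 at P56, all below the P0 values, at a difference of -0.44 ± 0.17 (adjusted p = 0.117). Slc38a3 (chr9:107650634-107669530, minus strand) fell in PCT. There it had 61.9 and 66.7 at P0 against 15.3 at P21 and 21.1 and 24.6 at P56, a log2 fold change of -1.51 ± 0.20 (adjusted p = 0.00103), and in PST 86 and 72.4 at P0 against 90.8 at P21 and 79.8 and 82.8 at P56, a difference of 0.17 ± 0.16 (adjusted p = 0.544). Slc7a7 and Slc43a2 rose in PCT by log2 0.43 ± 0.13 (adjusted p = 0.0334) and 0.41 ± 0.11 (adjusted p = 0.0247), and neither call held when totals alone set the scale, without either P0 sample or without P56 sample 2. The Slc43a2 call was also lost without the P21 sample, and with starts only the Slc7a7 value turned to -0.80 (adjusted p = 0.269). Slc3a2 had 77.7 and 95.4 at P0 against 92.2 at P21 and 73.1 and 95.2 at P56 in PCT, and the stages overlapped.

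Of the 5 genes of anionic amino acids, Slc1a1, the apical glutamate and aspartate carrier, rose in both segments, from 85.9 and 87 at P0 to 102, 118 and 129.9 in the adult samples in PCT and from 81.1 and 90.6 at P0 to 144, 129.6 and 142 in the adult samples in PST. The log2 fold changes were 0.56 ± 0.14 (adjusted p = 0.014) and 0.76 ± 0.15 (adjusted p = 0.0068). Slc1a2, Slc1a3, Slc1a6 and Slc1a7, which are better known from glia, neurons and retina, did not pass in PCT, and the 3 of them that could be tested in PST did not pass there. Their mean adult activities in PCT were 64.8, 8.97, 9.57 and 31. Among the proton-coupled genes, Slc36a1, found in the apical membrane of gut and in lysosomes, had 73.2 and 78.3 at P0 against 123 at P21 and 118 and 137 at P56 in PCT and 50.9 and 57.4 in the P0 samples against 91.4, 96.8 and 80.6 in the adult ones in PST. It was higher in every adult sample in both segments, with log2 fold changes of 0.86 ± 0.12 (adjusted p = 0.00117) and 0.80 ± 0.18 (adjusted p = 0.0129). Slc36a4 fell in PCT, with a log2 change of -0.90 ± 0.30, a call that DESeq2 did not make and that was lost without either P0 sample or P56 sample 2. Slc36a2, a renal carrier of glycine and proline, was at 8.65, 11.3 and 8.50 in the adult PCT samples and 7.46, 9.16 and 8.53 in PST, and did not pass, nor did Slc36a3 in PCT.

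Outside these lists, 11 members fell and 3 rose in PCT, where the podocyte, stromal, endothelial, intercalated and progenitor markers were lower as well, with the values given above. There, 4 of the 10 tested genes of cationic carriers and other light chains were lower and none higher, and 3 of 9 genes of monoamine, glycine and proline carriers were lower and none higher, where 14.7% of all genes were lower and 12.5% higher. Slc38a1, a carrier of glutamine and alanine widespread in growing cells and neurons, went from 25.5 and 24.5 at P0 to 5.80, 6.41 and 2.55 in the adult samples in PCT, a log2 fold change of -2.26 ± 0.35 (adjusted p = 0.00212). The GABA carrier gene Slc6a11 had a log2 change of -2.90 ± 0.45, from a P0 level of 7.53 on average. Slc7a14, a lysosomal member, went from 33.7 and 28.7 at P0 to 10.5, 13.5 and 6.31 in the adult samples, a change of -1.52 ± 0.30. Slc6a7, a proline carrier of the brain, Slc6a2, the noradrenaline carrier, Slc7a6, Slc7a11, Slc6a16, Slc7a1 and Slc38a10 had log2 changes of -2.10, -1.42, -1.04, -0.99, -0.87, -0.83 and -0.45. The value of Slc6a16 turned to 0.26 with peaks of 1 gene only, and that of Slc38a10 to 0.13 with starts only. Of the GABA, betaine and taurine carriers, Slc6a6, the taurine transporter, rose from 259 and 275 at P0 to 343, 404 and 421 in the adult samples, a change of 0.67 ± 0.13, and Slc6a13 rose by 0.30 ± 0.10. The lysosomal glutamine carrier gene Slc38a7 rose in both segments, by 0.52 ± 0.13 in PCT and 1.01 ± 0.22 in PST.

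In PST the largest log2 rise among the members was that of Slc7a12 (chr3:14480697-14505830, plus strand), a light chain for small neutral amino acids. It had 18.2 and 22.1 at P0 against 93.9 at P21 and 55.7 and 92.7 at P56, with no overlap, and a log2 fold change of 2.06 ± 0.29 (adjusted p = 0.00142). In PCT its values were 12.1 and 7.17 at P0 against 8.54 at P21 and 6.51 and 9.66 at P56, overlapping between the stages. Among those that fell in PST were Slc6a11, Slc38a8 and Slc38a1, with log2 changes of -2.36, -1.60 and -1.17. Slc6a14, which carries neutral and cationic amino acids in lung and gut, and Slc7a3, a cationic carrier, did not pass the filter in any cluster, and Slc38a5 passed it in Stroma 2 only.

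In the adult samples the exchangers of the basolateral side led in PCT, and Slc7a12, Slc38a3 and Slc6a18 in PST. Of 61 tested, 22 were higher in PST and 13 in PCT, where 17.2% and 13.4% of all genes were, and the median log2 difference, PST over PCT, was 0.26 over members and 0.00 over all genes. The segments were defined on the chromatin of the same nuclei, so these values rank genes and are no independent test. Slc7a12 stood highest in PST, at 93.9, 55.7 and 92.7 in the P21 and P56 samples against 8.54, 6.51 and 9.66 in PCT, a log2 difference of 3.29 ± 0.12. Slc38a3 and Slc6a18 followed among the named renal genes, at 2.04 ± 0.14 and 1.30 ± 0.11, and Slc3a1 and Slc7a13 were higher by 0.37 ± 0.09 and 0.50 ± 0.17. Among the rest, Slc7a11, Slc38a1, Slc6a2, Slc7a14, Slc1a5 and Slc7a1 were higher in PST by 1.63, 1.59, 1.49, 1.41, 1.34 and 1.06. Mean adult marker sums of immune (139.6 in PST, 54.9 in PCT), intercalated (53.8, 21.9), stromal (47.1, 28.6) and endothelial cells (46.1, 27.6) were higher in PST too. So were those of progenitors, loop of Henle, DCT and CNT. The sums of podocytes (26.5, 27.7) and principal cells (8.7, 23.7) were lower in PST. The part of other cell types in the segment differences was not tested. On the side of PCT, 3 of the 5 basolateral genes led, with -1.99 ± 0.11 for Slc7a8, -1.55 ± 0.11 for Slc43a2 and -1.22 ± 0.13 for Slc7a7. Slc7a9 and Slc6a19 were also higher in PCT, with differences of -0.40 ± 0.12 and -0.39 ± 0.10, and Slc7a2, an arginine carrier, and Slc1a6 had -1.56 ± 0.18 and -1.87 ± 0.31. Slc6a20a, Slc6a20b and Slc6a13 lay near 0, at 0.02 ± 0.11, 0.02 ± 0.10 and 0.08 ± 0.09. Without the sample as a block 23 members were called, 14 higher in PST and 9 in PCT.

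At P0 the same comparison called 10 of 61 members, 4 higher in PST and 6 in PCT, against 6.17% and 4.64% of all genes, and DESeq2 called 2. It rests on 2 samples and on 83 and 112 PST nuclei. The P0 calls on the side of PCT were Slc43a2 (-1.22 ± 0.10), Slc7a7 (-0.95 ± 0.09), Slc7a8 (-0.76 ± 0.11), Slc3a2 (-0.56 ± 0.12), Slc36a1 (-0.47 ± 0.13) and Slc6a19 (-0.36 ± 0.08). Of these, Slc36a1 turned to 0.068 with starts only and 0.18 with thinned nuclei. On the side of PST they were Slc7a12 (1.09 ± 0.30), Slc6a12 (1.09 ± 0.34), Slc7a11 (0.73 ± 0.10) and Slc6a16 (0.57 ± 0.17). Slc6a18, Slc38a3 and Slc3a1, all called in PST in the adult samples, had P0 differences of 0.15 ± 0.12, 0.30 ± 0.12 and 0.09 ± 0.08, which did not pass.

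Whether a stage effect differed between the segments was tested as an interaction, with the sample as a block since both segments come from the same kidneys. Of 61 members, 4 had a more positive stage effect in PST and 2 in PCT, against 1.84% and 1.47% of all genes. The differences of the stage effects, PST minus PCT on the log2 scale, were 2.19 ± 0.31 (adjusted p = 0.00187) for Slc7a12, 1.72 ± 0.23 (adjusted p = 0.00152) for Slc38a3, 1.36 ± 0.28 (adjusted p = 0.0169) for Slc7a14 and 1.14 ± 0.18 (adjusted p = 0.00361) for Slc6a18. They were -1.24 ± 0.18 (adjusted p = 0.00245) for Slc7a8 and -0.998 ± 0.25 (adjusted p = 0.0449) for Slc38a4. In Slc7a12 and Slc6a18 the adult samples rose in PST and did not pass in PCT. For Slc38a3 and Slc7a14 the fall in PCT passed and the PST values of 30.3 and 33.2 at P0 against 21.1 at P21 and 32.7 and 21.1 at P56 for Slc7a14 overlapped. Slc38a4 had 35.4 and 23.9 at P0 against 32.5 at P21 and 40.4 and 34.5 at P56 in PCT and 36.3 and 38.2 at P0 against 24.9 at P21 and 22.2 and 22.4 at P56 in PST, with no call in either segment alone. The other renal genes did not pass, with differences such as those of Slc3a1 (0.28 ± 0.13), Slc36a1 (-0.02 ± 0.20) and Slc6a19 (-0.04 ± 0.16). Without P0 sample 1 the sole member called was Slc38a3, without P0 sample 2 it was Slc7a12, and without P56 sample 1 the number called was 9.

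**Figure D3:**
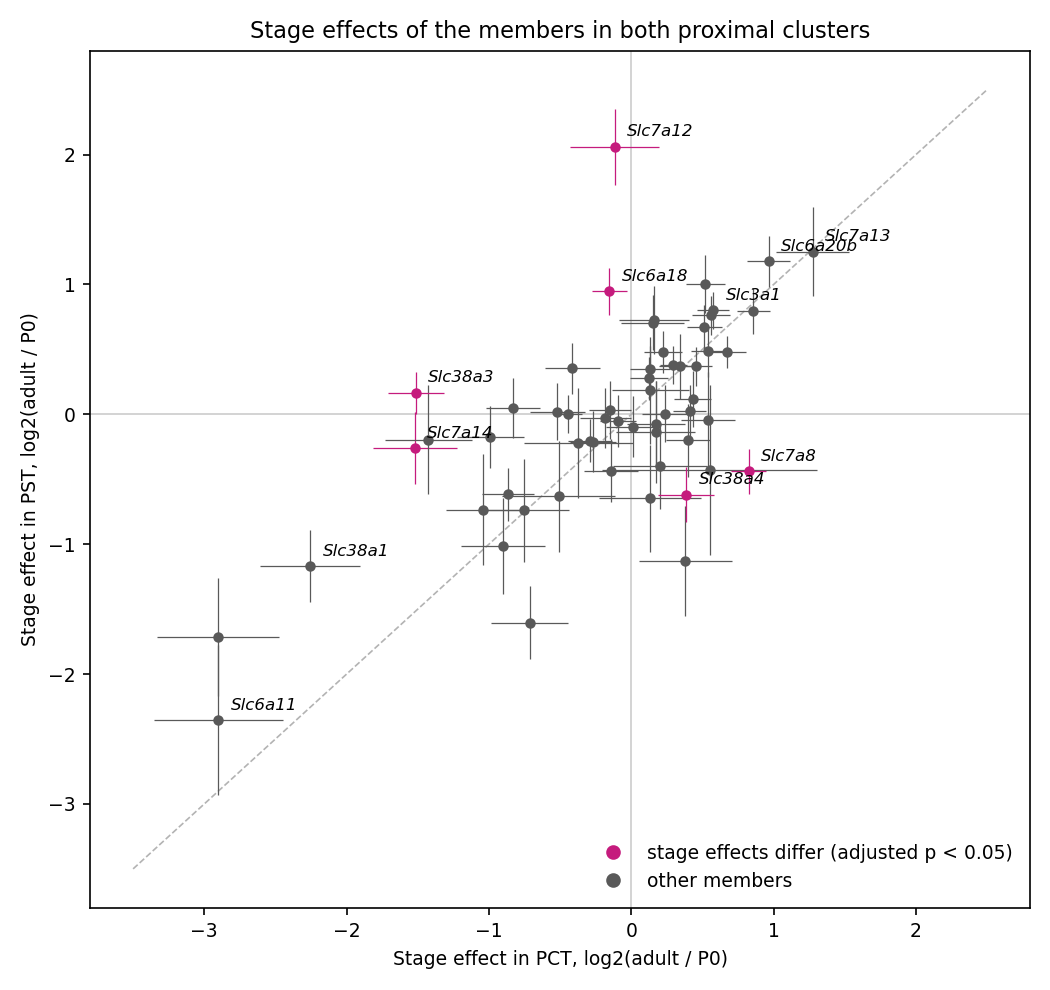
Stage effect of each tested member in PCT (x axis) and PST (y axis) as log2 of adult over P0, with standard errors as bars and a dashed line where both are equal. Pink points are members whose 2 effects differed by the interaction test; Slc7a12, Slc38a3, Slc7a14 and Slc6a18 lie above the line and Slc7a8 and Slc38a4 below it.

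Single peaks were compared between the stages in the same way. Of the member peaks, 353 were tested in PCT, and 65 were higher in the adult samples and 45 lower, against 16.3% and 17.6% of all 115761 peaks tested. Peaks of one gene are not independent. Slc7a8 had 9 of 21 tested peaks higher and none lower, Slc6a6 8 of 29, Slc3a1 6 of 14, and Slc43a2 6 of 21 with 1 lower. All 5 tested peaks of Slc38a3 were lower. With total open calls alone as the scale, 50 were higher and 55 lower, and without P0 sample 1 or 2 the calls fell to 37 and 52.

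In Slc7a8 the intronic peak whose sequence is printed above (chr14:54749418-54749893) had 3.46 and 3.59 at P0 against 19.4 at P21 and 21.7 and 19.8 at P56 in PCT and 0 and 0 in the P0 samples against 1.87, 1.31 and 1.58 in the adult ones in PST. In PCT its log2 fold change was 2.71 ± 0.27 (adjusted p = 3.39e-05). At P0 it was highest in immune nuclei (26.1 on average), and in every adult sample in PCT. The peak at the start of the gene had 11.1 and 6.88 at P0 against 14 at P21 and 15.3 and 14.8 at P56 in PCT, a change of 0.89 ± 0.26 (adjusted p = 0.0175), and the highest peak in adult PCT, an intronic one at chr14:54742231-54742985, had 33.7 and 41.9 at P0 against 39.5 at P21 and 45.3 and 52.4 at P56, a difference of 0.48 ± 0.23 (adjusted p = 0.12) that did not pass.

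For Slc6a18 a peak of 1604 bases over the UTR exon at its far end (chr13:73661295-73662898) had the larger segment difference of the 2 peaks described. It had 17 and 24.1 at P0 against 63.4 at P21 and 46.1 and 39.5 at P56 in PST and 11.9 and 11.4 in the P0 samples against 7.23, 5.39 and 4.51 in the adult ones in PCT, so it was higher in every adult PST sample than at P0 and lower in every adult PCT sample, at a PCT log2 fold change of -0.85 ± 0.29 (adjusted p = 0.0347). The peak at the start of the gene (chr13:73678010-73678519) had 30.3 and 21.1 at P0 against 57.2 at P21 and 33.2 and 49.7 at P56 in PST and 27.7 and 31.1 in the P0 samples against 23.5, 23.1 and 28.6 in the adult ones in PCT, and its PCT difference was -0.03 ± 0.22 (adjusted p = 0.94). Both peaks were highest in PST in every adult sample. In Slc7a12 the start peak (chr3:14480469-14481221) had 8.48 and 7.04 at P0 against 41 at P21 and 24.9 and 36.5 at P56 in PST, and the intronic peak printed above had 0 and 1.01 at P0 against 18 at P21 and 14.4 and 20.9 at P56, with 0.247 and 0.299 in the P0 samples against 0.329, 0.372 and 0.405 in the adult ones in PCT.

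The printed upstream peak of Slc38a3 had 10.4 and 17 at P0 against 3.29 at P21 and 4.09 and 5.32 at P56 in PCT, a log2 fold change of -1.47 ± 0.32 (adjusted p = 0.00405), and 18.2 and 13.1 at P0 against 19.3 at P21 and 16 and 15.5 at P56 in PST. The printed intronic peak of Slc3a1 was higher in every adult sample in both segments, at 57.2, 43.2 and 45.3 in adult PST from 23 and 29.2 at P0, and in PCT by log2 0.76 ± 0.22 (adjusted p = 0.0186). Slc6a19 had 2 peaks over annotated starts among those described. The peak at chr13:73692355-73693092 had 75.5 and 85.5 at P0 against 88.5 at P21 and 73.3 and 89.4 at P56 in PCT and 54.5 and 66.4 in the P0 samples against 93.3, 59.4 and 60.9 in the adult ones in PST, so the adult segments overlapped. The one at chr13:73700553-73701160 had 21.8 and 23.6 at P0 against 37.1 at P21 and 30.9 and 41.9 at P56 in PCT and no more than 6.84 in any PST sample.

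**Figure D4:**
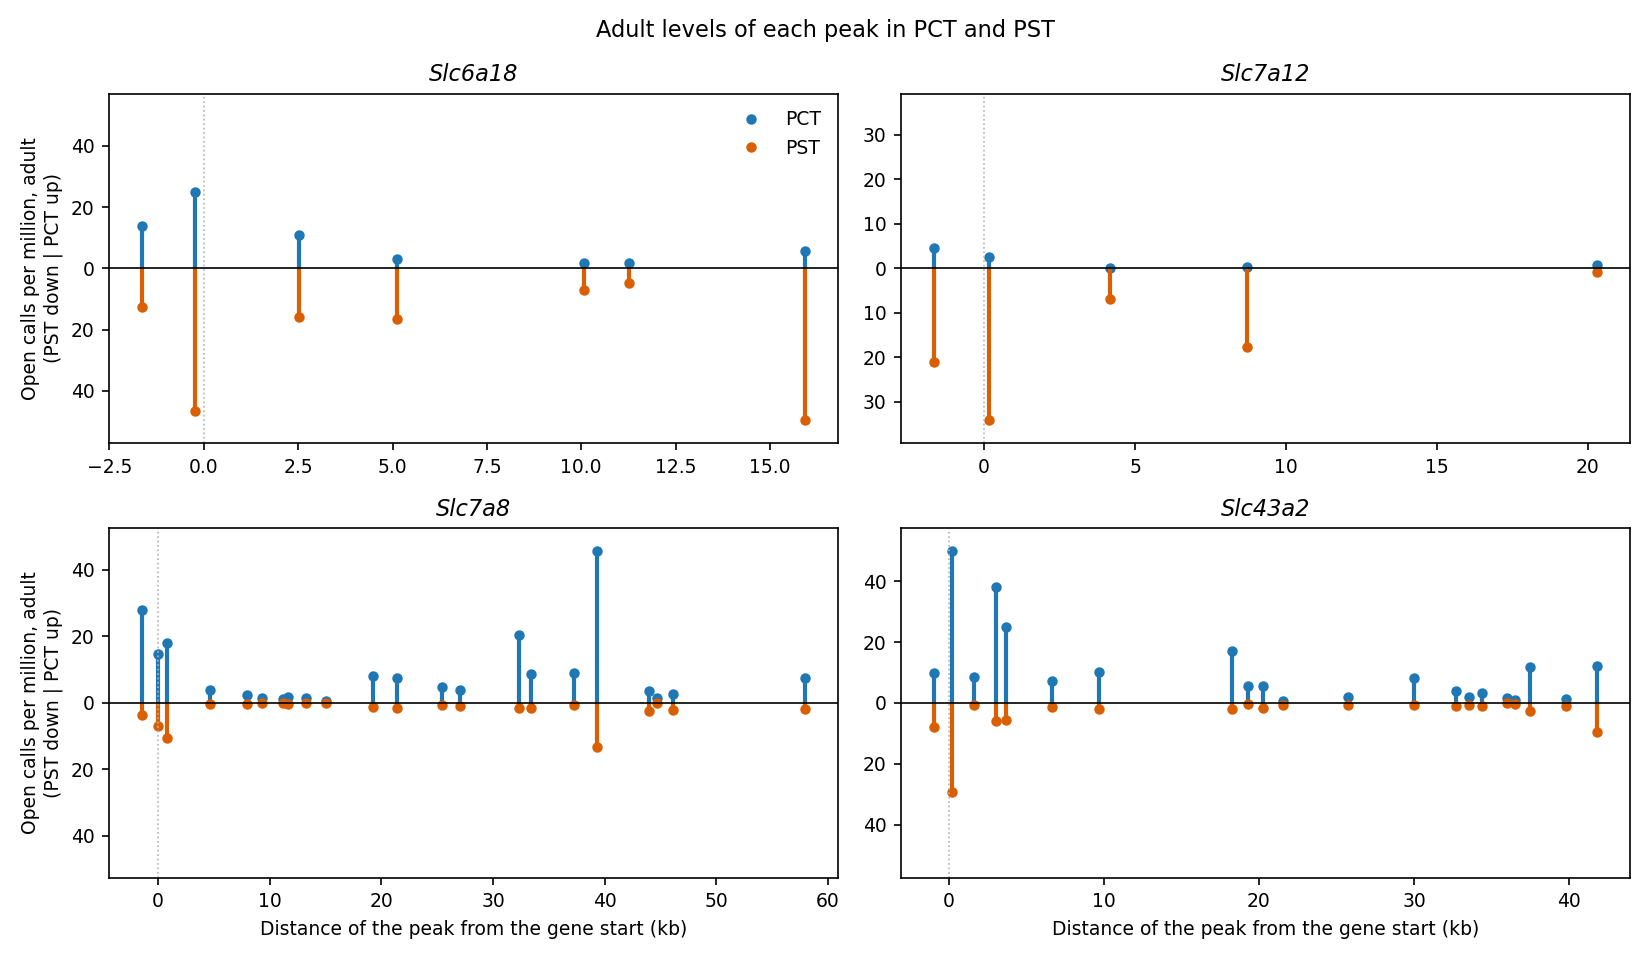
Mean adult level of each peak in CPM, PCT upward in blue and PST downward in orange, by the distance of the peak from the gene start in kb, for Slc6a18, Slc7a12, Slc7a8 and Slc43a2. In Slc6a18 and Slc7a12 the tall lines point to PST, in Slc7a8 and Slc43a2 most point to PCT, with 20.3 against 1.58 in the printed peak of Slc7a8.

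Beyond the proximal tubule more calls of members were lower than higher in adult kidneys. In the other 11 clusters, 503 pairs of a member and a cluster were tested, and 58 were higher and 127 lower in the adult samples, against 10.8% and 14.1% of all pairs of gene and cluster. Without P0 sample 1 or 2 the pairs called were 81 and 104, and DESeq2 called 120. In the loop of Henle 8 of 61 members were higher and 30 lower, against 22.7% and 28.4% of all genes, with 4 and 15 without P0 sample 1 and 4 and 23 without P0 sample 2. Of the 28 cell type markers tested there, 3 were higher and 18 lower. The 2 loop of Henle markers summed to 99.1 and 125 at P0 against 510.5, 440 and 527 in the adult samples, while those of podocytes ranged from 73.2 to 76.5 at P0 against 8.44 to 17.9, of stroma from 75.8 to 78.3 against 30.7 to 33.8, of endothelium from 90.5 to 97.2 against 26.4 to 50.5 and of nephron progenitors from 67.5 to 75.3 against 11.9 to 21.5. The 2 DCT markers went the other way, with sums of 53.3 and 52.8 at P0 against 158, 190 and 232 in the adult samples. The part of these marker lists in the member values was not tested. In principal cells 4 of 58 were higher and 22 lower, against 12.2% and 17.8%, with 10 higher without P56 sample 1, 2 without P56 sample 2, 1 without P0 sample 1 and 0 without P0 sample 2. The lower calls there came to 25, 12, 8 and 8 in the same order, and DESeq2 called 1 higher and 7 lower. The stroma, podocyte, endothelial, intercalated and progenitor marker sums were lower in every adult sample there, and those of principal cells, loop of Henle and PCT higher. The 2 principal cell markers went from 45.9 and 50.3 at P0 to 145, 139 and 167. Stroma went from 66.8 and 61.5 at P0 to 27.6, 38.5 and 32.4, and loop of Henle from 23.5 and 13.9 to 49.7, 33.8 and 51.4. The part of these lists was not tested. In immune nuclei edgeR called none of 23 members, with 2 at an unadjusted p under 0.05, and DESeq2 none of 63. Of all genes there edgeR called 1 of 8735 higher and 2 lower, with 884 at an unadjusted p under 0.05, and DESeq2 none of 17432. Over all 13 clusters, 58 members were called in at least 1, 31 of them only lower, 17 only higher and 10 in both directions. The same was not counted over all genes, so these numbers do not set the members apart.

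Slc38a1 was lower in 10 of the 13 clusters in which it was tested, as in the cluster named nephron progenitors, with 85.2 and 90.2 at P0 against 25.9 at P21 and 33.5 and 21.7 at P56, and the loop of Henle, with 72.7 and 74.8 at P0 against 44.1 at P21 and 38.7 and 34.9 at P56. The stages did not overlap in either. In the progenitor cluster the defining marker Six2 was at 0, 0 and 2.71 in the adult samples. Slc7a14 was lower in 8 of 12 clusters and Slc7a11 in 7 of 13, among them Stroma 1, where Slc7a11 went from 232 and 199 at P0 to 88.4, 84 and 91.3 in the adult samples, a log2 fold change of -1.45 ± 0.18. The 3 stroma markers of Stroma 1 summed to 246 and 255 at P0 against 119, 155 and 175 in the adult samples, while those of DCT ranged from 23.5 to 28 at P0 against 108 to 142, of the loop of Henle from 14.9 to 19.9 against 23.5 to 78.3 and of endothelium from 124 to 126 against 143 to 262. Their part in this fall was not tested. Slc38a4 was lower in 7 of 10 clusters and higher in podocytes, with 48.9 and 45.8 at P0 against 93.4 at P21 and 73.7 and 78.4 at P56 there. Its podocyte call, 0.78 ± 0.21, was not made by DESeq2 and was lost without P0 sample 2 or the P21 sample. Slc43a2 rose in 6 clusters, most in the loop of Henle, from 121 and 135 at P0 to 274, 286 and 357 in the adult samples, at 1.29 ± 0.15. Slc1a5, a neutral exchanger that supplies glutamine, rose there as well, from 76.5 and 75.2 at P0 to 139, 135 and 154 in the adult samples. The DCT markers also rose in the loop of Henle, with the values given above, and their part in these rises was not tested.

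**Figure D5:**
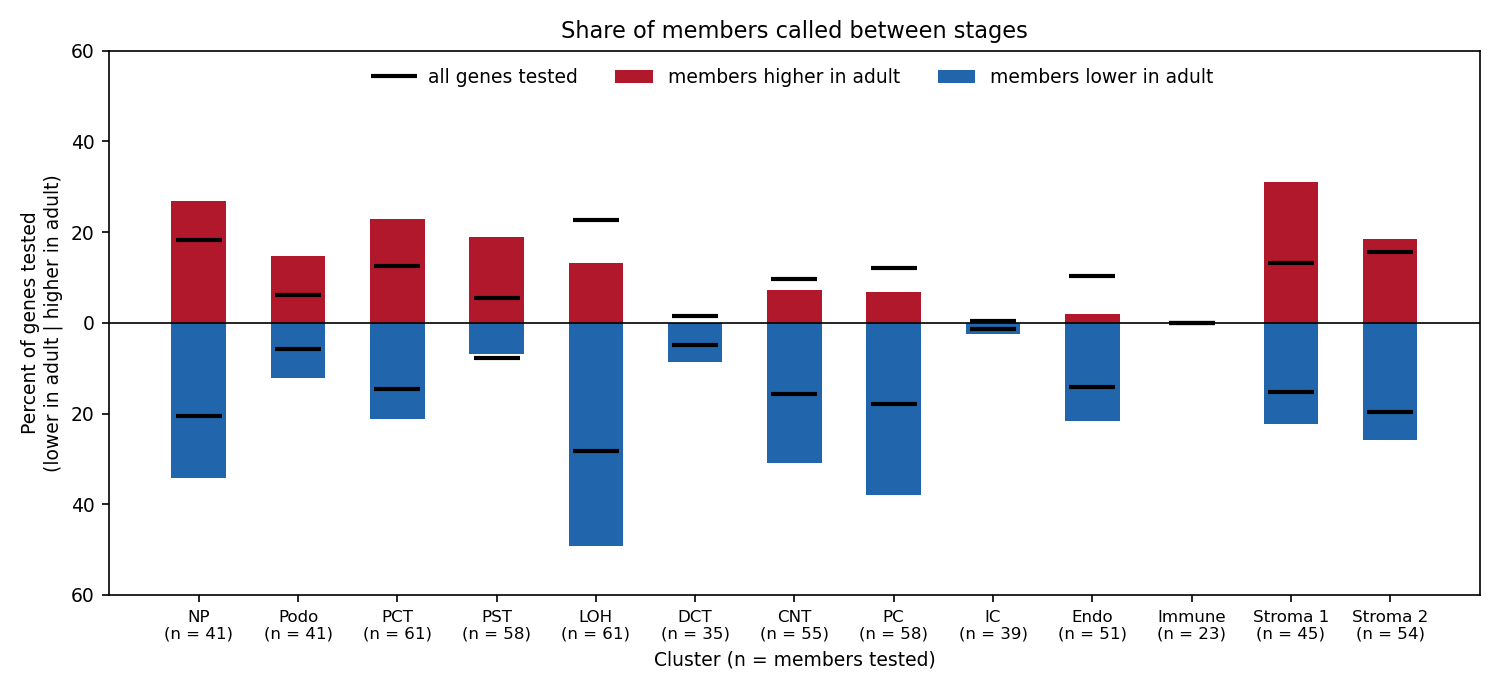
Percent of the members tested in each cluster (n under each name) that were higher (red, up) or lower (blue, down) in adult samples by edgeR at an adjusted p under 0.05, with black dashes for all genes tested. In the loop of Henle 49.2% of members were lower against 28.4% of genes, and in PST 19.0% were higher against 5.43%.

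The apical genes also rose in clusters that are not proximal. Outside PCT and PST, Slc6a19 was higher in adult samples in 6 clusters and lower in none, Slc6a18 in 5 and Slc3a1 in 4, with Slc3a1 lower in the loop of Henle. In nephron progenitors Slc6a19 had 43.1 and 44.4 at P0 against 143 at P21 and 155 and 198 at P56, and Slc3a1 had 18.6 and 19.3 at P0 against 73.5 at P21 and 70.1 and 86.8 at P56. The stages did not overlap, with log2 fold changes of 1.80 ± 0.16 and 1.88 ± 0.23, on 52, 90 and 53 adult nuclei. The markers of this cluster moved as well. The 3 nephron progenitor markers summed to 133 and 133 at P0 against 13 at P21 and 39.6 and 35.3 at P56, and Six2, which defines progenitors, had 56.8 and 56.6 at P0 against 0 at P21 and 0 and 2.71 at P56. The 2 loop of Henle markers summed to 33.9 and 26.9 at P0 against 99.4, 94.4 and 94.9 in the adult samples, and the 2 DCT markers to 28.7 and 29.7 at P0 against 64.9, 128 and 138. The part of other cell types in the member values of this cluster was not tested. In Stroma 1, Slc6a19 had 12 and 12.7 at P0 against 119 at P21 and 33.6 and 95 at P56 and Slc6a18 0.523 and 3.73 at P0 against 34 at P21 and 13.4 and 22.4 at P56. Over all members in Stroma 1, 14 of 45 were higher and 10 lower, against 13.1% and 15.3% of all genes, and 3 were higher without P0 sample 1, 7 without P0 sample 2 or P56 sample 2 and 9 without the P21 sample. Totals alone moved the median of all genes there by 0.16 and the split of members to 16 higher, and in nephron progenitors by 0.14. In podocytes Slc3a1 had 17.1 and 16.9 at P0 against 46.7 at P21 and 42.1 and 99 at P56, a change of 1.81 ± 0.33.

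The summed activity of the 9 proximal markers was given beside these rises. In Stroma 1 it was 197 and 209 at P0 against 534 at P21 and 262 and 391 at P56, and 3 of the 9 were higher in every adult sample than in every P0 sample. In podocytes it was 202 and 175 at P0 against 327 at P21 and 246 and 367 at P56, with 6 of 9 higher. In nephron progenitors it was 249.5 and 229 at P0 against 203 at P21 and 186 and 320.1 at P56, with 2 of 9 higher. The 3 PCT markers among them summed to 28.4 and 29.5 at P0 against 34.6, 33.5 and 89.5 in the adult samples there, and Cubn, open in other clusters too, had lower values in every adult sample. The 3 PST markers summed to 26.4 and 26.3 at P0 against 8.65, 15.2 and 21.7. In Stroma 2 the sum of the 9 was 287 and 284 at P0 against 262 at P21 and 179.8 and 273 at P56, with 4 of 9 higher. The 3 PCT markers, all of them higher, summed there to 27.3 and 30.5 at P0 against 77.4, 34 and 80.1 in the adult samples. The 3 PST markers summed to 73 and 65.6 at P0 against 36.4, 40.4 and 35.9. The other 3 proximal markers summed to 187 and 188 at P0 against 148, 105 and 157, so these 2 lists were lower in every adult sample. In the loop of Henle it was 194 and 177 at P0 against 214 at P21 and 72.2 and 96.5 at P56, with 1 of 9 higher, and in principal cells 203 and 191 at P0 against 304 at P21 and 177 and 280.0 at P56, with 2 of 9 higher. In PCT itself the sum was 694 and 691 at P0 against 1085 at P21 and 852 and 1079 at P56, and in PST 402 and 385 at P0 against 656 at P21 and 496 and 612 at P56. At least 1 of the 9 was at 0 in a sample of each of the non-proximal clusters named here. The part of proximal DNA from other nuclei in the rises outside the proximal tubule was not tested.

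The 13 partner genes, the brush border peptidases, peptide carriers and helper proteins that work beside these transporters, were fixed as a list of their own. In PCT 4 rose and 2 fell, where 12.5% and 14.7% of all genes did, and in PST 3 rose and none fell, against 5.43% and 7.71%. Slc15a2, a carrier of small peptides, rose by log2 1.39 ± 0.18 in PCT and 1.33 ± 0.20 in PST, and Slc16a10, a basolateral carrier of aromatic amino acids, by 1.05 ± 0.10 in PCT. Cltrn, which takes Slc6a19 and its relatives to the membrane, rose by 0.65 ± 0.17 in PCT. Mep1b, a subunit of the peptidase meprin, fell in PCT (-2.08 ± 0.27) and rose in PST (0.85 ± 0.16). Between the adult segments, against 17.2% and 13.4% of all genes, 4 partners were higher in PST, led by Mep1b (3.92 ± 0.17), and 4 in PCT, led by the dipeptidase gene Dpep1 (-1.83 ± 0.13) and the peptide carrier gene Slc15a1 (-1.53 ± 0.14).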

How the data were processed

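The counts analysed here are sums of the cell-by-peak matrix that the authors deposited. Per the methods and the labels, the authors aligned the reads with Cell Ranger ATAC 1.1.0 to mm10 (GRCm38), called peaks with MACS2 on the pooled fragments of each cell type, merged them and binarized the matrix, so it holds no fragment counts and is not scaled for depth. Deposited clusters and sample names were used, with the clusters PT and PT2 called PCT and PST here. The 664 nuclei outside the 13 clusters were left out, and doublets were not searched for.

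Open calls were summed by gene, sample and cluster and tested in R 4.3.3 with edgeR 4.0.16 (quasi-likelihood test after TMM scaling, with genes kept by filterByExpr at a count of 10 and a total of 15 or more, and Benjamini-Hochberg adjustment at 0.05 over all genes). P0 (n = 2) was compared with adult (n = 3) in each cluster, and PST with PCT with the sample as a block, which leaves 1 residual degree of freedom at P0. Standard errors (SE) come from the same test. DESeq2 1.42.0, its size factors, totals alone, no filter, equal nuclei, thinned nuclei, starts only, peaks of 1 gene only and leaving out each sample were alternatives. Figures and sums used Python 3.11.15 and numpy 2.4.6. The code was tested on simulated data. The members and lists were chosen with earlier results of these data known. Named whatever their values were the members of 5 role lists (apical neutral, cystine and dibasic, basolateral, anionic, proton-coupled), and of the others up to 10 with the largest log2 change called in each direction of a comparison, members that passed the filter in no cluster and up to 4 partners. Named peaks were the start peak of a named member and the peak highest in adult PCT or PST. Other genes and peaks named, and the printed sequences, were chosen after their values were seen. Depth differs by sample, sums near the minimum count carry a large counting error, and peaks shared by neighbouring genes, as between Slc6a18 and Slc6a19, count for both. Some results that this rule would name are not reported here. The scRNA-seq and bulk ATAC-seq libraries were not used here.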

Additional observations from a re-analysis of the deposited data

Results flagged for a closer look

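The stage effect, adult over P0, differed between PST and PCT in 6 members by the interaction term of edgeR, with both segments taken from the same 5 samples. The difference on the log2 scale, PST minus PCT, was 2.19 for Slc7a12, 1.72 for Slc38a3, 1.36 for Slc7a14 and 1.14 for Slc6a18. It was -1.24 for Slc7a8 and -0.998 for Slc38a4. Clusters were formed on the chromatin of these nuclei, and PST held 83 and 112 nuclei in the P0 samples.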

How the results depend on the processing

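Each alternative repeated those of the 278 member calls that it still tested, and calls not tested again were left out of the count. Over all repeats, 2545 kept their direction and side of the threshold, 749 kept the direction only and 17 turned. The share kept differed by setting. No filter kept 275 of 278, DESeq2 181 of 278, equal nuclei 187 of 246, starts only 90 of 181 and thinned nuclei 69 of 153. Thinning nuclei moved the members called from 27 to 10 in PCT, from 15 to 0 in PST (6 at an unadjusted p under 0.05 by edgeR), from 185 to 42 in the other 11 clusters, from 35 to 21 between the adult segments, from 10 to 1 between the P0 segments and from 6 to 0 in the interaction (9 at an unadjusted p under 0.05). Starts only gave 12, 8, 74, 17, 3 and 3 in the same order. Members led by a proximal segment went from 22 to 15 in adult kidneys and from 17 to 14 at P0 with starts only. With thinned nuclei these numbers were 18 and 20. DESeq2 gave 120 in the other 11 clusters and 2 between the P0 segments, equal nuclei gave 4 there, and the adult segments gave 23 with no replicate block. Leaving out 1 sample gave 6 to 33 in PCT, 0 to 15 in PST, 81 to 250 in the other 11 clusters, 26 to 29 between the adult segments, 1 to 9 in the interaction, 37 to 118 for peaks in PCT (110 with all samples), and 22 to 23 adult and 17 to 18 P0 members led by a proximal segment. The lowest counts in PCT and of peaks came without P0 sample 1, and those in PST without either P0 sample. With P0 and P56 samples paired by number, a replicate block chosen after seeing the data gave 34 calls in PCT and 22 in PST. The samples share only a number, and deviations of same-numbered samples correlated at 0.26 over 15179 genes in PCT and 0.118 over 11261 in PST.

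The log2 values that turned with starts only were those of Slc6a6 in nephron progenitors (-0.15), Slc7a5 in podocytes (0.20), Slc38a10 (0.13) and Slc7a7 (-0.80) in PCT, Slc7a1 in loop of Henle (0.27), Slc38a3 in principal cells (1.06), Slc6a9 (-0.60) and Slc43a2 (-0.25) in Stroma 1, Slc6a19 in Stroma 2 (-0.12), Slc1a2 (0.60) and Slc38a10 (-0.18) between adult segments and Slc36a1 between P0 segments (0.068). Thinning turned Slc43a2 in nephron progenitors (-0.14) and Slc36a1 between P0 segments (0.18), equal nuclei Slc6a6 in podocytes (-0.12), and peaks of 1 gene only Slc6a16 in PCT (0.26) and between adult segments (-1.45). Thinned and start-only sums hold fewer open calls and fewer genes tested. The cause of the lost and turned calls was not tested for any setting.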
